A study of Mus musculus with 13 samples.

Results

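The lymphomas described here arose in the thymus of Atm-/- mice on a 129S6/SvEv background, 1 from each of 5 mice. They were compared with the whole thymus of 3 WT C57BL/6 mice. These 8 libraries were chosen by genotype alone, out of 13 libraries in the series, and no measured value entered the choice. The other 5 libraries are thymic lymphomas of 5 Rag2c/c p53-/- mice on a mixed C57BL/6 and 129S6/SvEv background, which lack p53 and express a RAG2 protein that lacks its C terminus. They show where the Atm-/- lymphomas differ from another lymphoma, and they entered the filter and the estimate of the spread behind every test. RNA was taken from single-cell suspensions, and polyadenylated RNA was sequenced. Each group has a strain of its own and the thymuses are the re-used libraries, so strain, tumor state and library set cannot be told apart. A label of the WT libraries names lymphoma where the tissue label names thymus. The ages of the mice and the kind of Atm allele are not given in the sources used here.

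ATM is a protein kinase that is activated by DNA double-strand breaks. It phosphorylates p53, CHK2 and histone H2AX, and it holds the DNA ends made by the RAG1 and RAG2 recombinase together until they are joined. Thymocytes make such breaks when they assemble their T cell receptor genes, the β chain gene in double negative (DN) cells that carry neither CD4 nor CD8, and the α chain gene in double positive (DP) cells that carry both. Cells that pass selection become single positive (SP) T cells and leave the thymus. Mice and people without ATM are prone to lymphomas of immature T cells, in which translocations that join the Tcrα/δ locus to other sites are known to recur.

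Values are normalized counts, that is, reads per gene divided by a size factor of the library and rounded to whole numbers. Column totals lay between 19788898 and 21591289. The estimated depth was 9.21 to 23.64 M reads in the Atm-/- lymphomas and 6.66 to 39.73 M reads in WT thymus. At these depths 3 reads were worth 2.55, 6.87, 4.65, 5.64 and 3.0 in lymphomas 1 to 5. They were worth 1.5, 9.72 and 1.53 in WT thymus 1 to WT thymus 3. A value at or below that of its own library is near the limit of detection. The median gene had a standard deviation (SD) of 0.436 on the log2 scale among the lymphomas and of 0.162 among the WT thymuses. Of 8 libraries, 3 lymphomas and the 3 thymuses carried Xist RNA and no Ddx3y, whereas lymphomas 4 and 5 had Xist at 2 in each and Ddx3y, a gene of the Y chromosome, at 831 and 1178. Each list of per-library values runs from lymphoma 1 to lymphoma 5 and from WT thymus 1 to WT thymus 3. Errors of log2 fold changes are standard errors (SE), and adjusted p-values come from limma with Benjamini-Hochberg adjustment over all genes tested.

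The first question was how far the Atm-/- lymphomas had moved from the thymus as a whole. Of 15872 genes tested, 4687 (29.5%) were changed, that is, they had an adjusted p below 0.05, differed by 1 or more on the log2 scale and reached a group mean of 10. Of these, 1992 genes (12.6%) were higher in the lymphomas and 2695 (17.0%) were lower. The median log2 fold change over all tested genes was -0.02. Without regard to size, every lymphoma exceeded every thymus for 3711 genes (23.4%) and lay under every thymus for 4434 genes (27.9%). These shares are the background against which each gene list below has to be read.

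Atm itself (ENSMUSG00000034218, GRCm38 chromosome 9 from 53439149 to 53536740) was reduced but not absent. Its values were 732, 208, 445, 568 and 534 in the lymphomas and 1990, 1559 and 2274 in WT thymus. The lymphoma mean was 497 ± 192 (SD, n = 5) against 1941 ± 360 (SD, n = 3), a log2 fold change of -2.06 ± 0.42, adjusted p = 0.0017. Lymphoma 2 was lowest, and no lymphoma reached the lowest thymus. The Rag2c/c p53-/- lymphomas, whose genotype does not alter Atm, stood at 942 ± 413 (SD, n = 5), and the difference of the Atm-/- lymphomas from them did not pass the test (log2 -0.89, adjusted p = 0.14). Since it is not known which exons the allele lacks, this level checks the genotype only in part.

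Trp53, which encodes p53 and is not altered by this genotype, was expressed in every Atm-/- lymphoma. Trp53 (ENSMUSG00000059552, chromosome 11 from 69580359 to 69591873) had values of 6853, 11318, 9340, 10202 and 6955 in the lymphomas and 4387, 6341 and 4498 in WT thymus. The groups did not overlap, but the log2 fold change (0.81 ± 0.29, adjusted p = 0.034) missed the fold threshold. Among 25 tested p53 target genes, 4 rose and 6 fell (16% and 24%, near the 12.6% and 17.0% of all genes), with a median log2 fold change of -0.04. The list as a whole therefore did not stand out, and its members are described singly. Cdkn1a, the p21 inhibitor of cyclin-dependent kinases, rose from 208, 136 and 202 in WT thymus to 329, 1320, 957, 827 and 1024 in the lymphomas (log2 2.18 ± 0.39, adjusted p = 0.00069). Phlda3, a p53-induced repressor of AKT, was at 268, 831, 234, 380 and 394 in the lymphomas and 88, 88 and 69 in WT thymus (log2 2.21 ± 0.44, adjusted p = 0.0014). The genes that fell include mediators of cell death. Fas, a death receptor, was at 47, 103, 352, 70 and 345 in the lymphomas and 1652, 1673 and 1595 in WT thymus (log2 -3.61 ± 0.56, adjusted p = 0.00027). Pmaip1, which encodes the BH3-only protein NOXA, was at 25, 16, 11, 26 and 17 in the lymphomas and 144, 88 and 130 in WT thymus (log2 -2.64 ± 0.48, adjusted p = 0.00079). Trp53inp1, a p53-induced stress gene, fell by 1.75 on the log2 scale (adjusted p = 0.00011). Tnfrsf10b, a receptor of the death ligand TRAIL, went against them at 209, 292, 351, 246 and 268 in the lymphomas and 132, 107 and 141 in WT thymus (log2 1.09 ± 0.33, adjusted p = 0.017), and Psrc1, a spindle protein, rose by 1.26 on the log2 scale. Both were named after their values were seen, and the call of Tnfrsf10b was lost without lymphoma 3 or WT thymus 2 (adjusted p of up to 0.070). Sesn1, Btg2 and Gadd45a, which slow growth or division, are the other members that fell. Mdm2, the ubiquitin ligase of p53, had a log2 fold change of -0.77 ± 0.14, adjusted p = 0.00097, under the fold threshold. Against the p53-deficient Rag2c/c lymphomas, 5 of the 25 targets were higher in the Atm-/- lymphomas and 0 were lower by limma, where 3.51% and 4.33% of all genes were. Phlda3 was among them (log2 2.18, adjusted p = 0.0028), and Trp53 itself was also higher (log2 1.38, adjusted p = 0.0033).

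Both subunits of the V(D)J recombinase fell. Of 14 tested genes for the recombinase and for end joining, 5 were lower and 1 higher. Rag1 (ENSMUSG00000061311, chromosome 2 from 101638282 to 101649501), the catalytic subunit, had values of 6304, 5755, 5496, 7116 and 2383 in the lymphomas and 48182, 70834 and 51074 in WT thymus. The mean of 5411 ± 1803 (SD, n = 5) was below that of 56697 ± 12328 (SD, n = 3) by 3.46 on the log2 scale (adjusted p = 5.2e-05). Rag2 (ENSMUSG00000032864, chromosome 2 from 101624718 to 101632529), its partner, was at 279, 1025, 265, 521 and 46 in the lymphomas and 4199, 5409 and 4502 in WT thymus (log2 -4.04 ± 0.71, adjusted p = 0.00062). Every lymphoma kept both transcripts above the detection limit, and lymphoma 5 was lowest for each. Dclre1c, which encodes the hairpin-opening nuclease Artemis, was at 450, 272, 709, 515 and 726 in the lymphomas and 1858, 1559 and 1939 in WT thymus (log2 -1.82 ± 0.41, adjusted p = 0.0034). Prkdc, the DNA-PK catalytic subunit that activates Artemis, was at 632, 628, 630, 602 and 719 in the lymphomas and 1720, 1319 and 1934 in WT thymus (log2 -1.35 ± 0.20, adjusted p = 0.00018), within 602 and 719 in the 5 lymphomas. Dntt, the terminal transferase that adds nucleotides at V(D)J junctions, was at 5241, 12795, 10777, 11306 and 6699 in the lymphomas and 16836, 23103 and 16482 in WT thymus (log2 -1.07 ± 0.28, adjusted p = 0.0084), and its call was lost without lymphoma 1, lymphoma 5 or WT thymus 2, where the log2 fold change came to as little as -0.88. Xrcc6, the Ku70 subunit of the end-binding complex, went the other way. It was at 16359, 17410, 16966, 21818 and 15921 in the lymphomas and 6983, 7696 and 6768 in WT thymus (log2 1.30 ± 0.19, adjusted p = 0.00016). Its partner Xrcc5 (Ku80) missed the fold threshold (log2 0.71 ± 0.19, adjusted p = 0.0092).

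Among 20 tested genes of ATM and DNA damage signalling 1 was higher and 2 were lower, Atm being 1 of the latter, and without Atm-/- lymphoma 2 a single member, lower, was left. Among 26 genes of homologous recombination and the Fanconi pathway 0 were higher and 1 was lower, a count of 3 without lymphoma 2. That member was Dmc1, a recombinase best known from meiosis, listed at 0, 2, 2, 0 and 0 in the lymphomas and 74, 52 and 62 in WT thymus.

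Each lymphoma expressed a narrow set of T cell receptor β variable (Trbv) segments, and the sets differed. In lymphoma 1 the segment Trbv13-1 took 90.3% of all Trbv values. In lymphoma 2 Trbv3 took 74.7% and Trbv17 12.9%. In lymphoma 3 Trbv1 took 59.7% and Trbv12-2 36.9%, and in lymphoma 4 Trbv19 took 71.1% and Trbv2 17.0%. Lymphoma 5 was shared between Trbv13-2 with 46.5% and Trbv13-1 with 43.0%. In WT thymus the leading segment, Trbv13-2, took 9.89%, 11.3% and 9.99%. Segments of the Trbv12 and Trbv13 families are near-identical copies, so the split between their members is uncertain. Trbc1, a β constant gene with the near-identical copy Trbc2, took 16.0% of the constant-region values in lymphoma 1 and 0.518% in lymphoma 4, against 45.7% to 55.8% in the other lymphomas and 44.9% to 46.0% in WT thymus.

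Transcripts of the α chain variable segments were low. Summed Trav values were 572, 444, 867, 735 and 842 in the lymphomas and 6133, 4863 and 5704 in WT thymus, a log2 difference of -3.05 (exact permutation test, two-sided, p = 0.0357, the smallest that 5 against 3 allows, adjusted p = 0.0476 over 4 tests). Summed Trbv values fell from 19658, 20066 and 18743 to 3973, 5858, 10560, 11125 and 4504 (log2 difference -1.57, the same exact p = 0.0357 and adjusted p = 0.0476). The low α chain level also set these lymphomas apart from the Rag2c/c p53-/- lymphomas, which ranged from 1404 to 6988 (log2 difference -1.97, exact permutation p = 0.0079, adjusted p = 0.0317). For Trbv no such difference was detectable (log2 0.21, exact permutation p = 0.516). In bulk tissue, fewer cells of a type and less RNA per cell cannot be told apart, which holds for each result here.

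**Figure D1:**
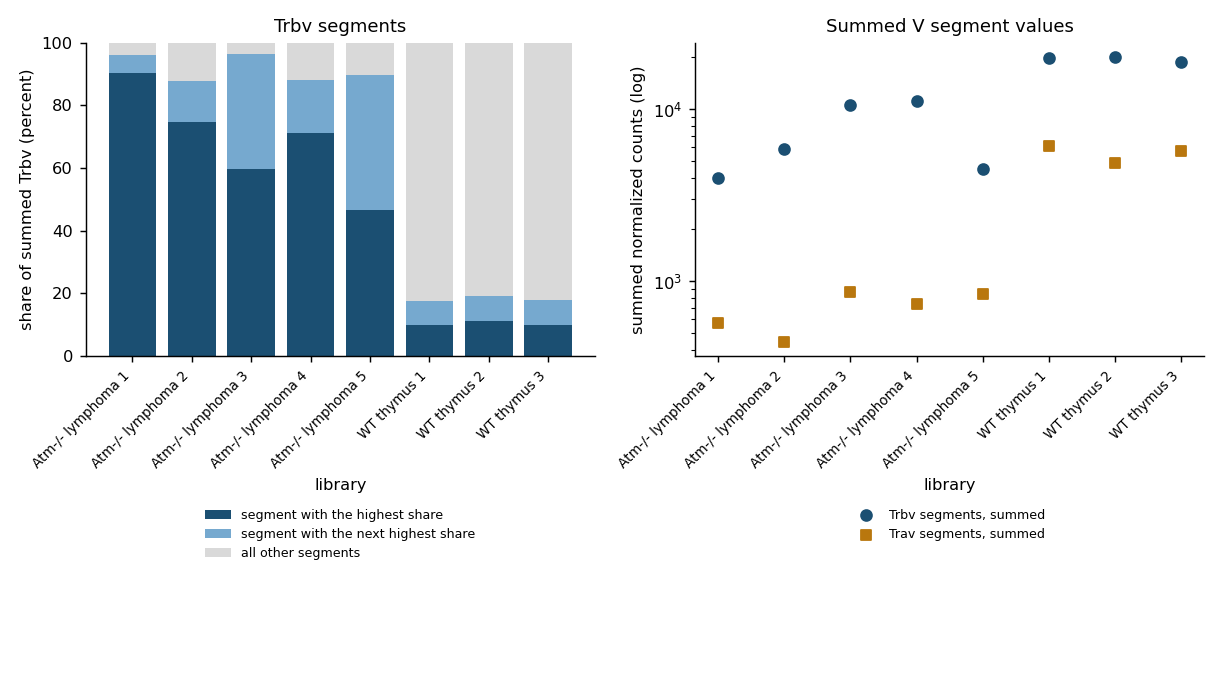
Left, share of the summed Trbv values (percent) held by the leading segment, the next and all others in each of the 5 Atm-/- lymphomas and 3 WT thymuses. Right, summed Trbv and Trav normalized counts of the same libraries on a log axis. The leading segment reaches 46.5% to 90.3% in the Atm-/- lymphomas and at most 11.3% in WT thymus, and summed Trav values are 444 to 867 against 4863 to 6133.

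Levels along the chromosomes were uneven in the lymphomas. Chromosome 14 carries the Tcrα/δ (Tra) locus, whose segments span 52427928 to 54223097 of GRCm38. The median difference of a lymphoma from the mean WT level was taken over the tested genes of each chromosome, with receptor segments left out. For the 224 genes of chromosome 14 that lie before the Tra locus, the log2 medians were 0.70, 0.31, 0.54, 1.12 and 0.64. For the 293 genes after it, they were -0.91, -0.17, -0.28, -0.34 and -0.95. All 5 lymphomas were therefore higher on the centromeric side and lower on the telomeric side of the locus. In lymphoma 2 the X chromosome and chromosome 12, at -0.31 each, lay as far from 0. The WT thymuses, each set against the mean of the others, lay between -0.10 and 0.05 on both sides. The whole chromosome of 522 genes, in which both shifts cancel, gave -0.29 to 0.15. The split at the Tra locus was chosen for these values, so no p is given for its sides.

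Chromosome 15, which carries Myc, was higher by 0.54, 0.10, 0.41, 0.57 and 0.47 on the log2 scale over 583 genes, lymphoma 2 being the lowest. Against WT thymus, 10 of 20 whole chromosomes reached the smallest exact permutation p for 5 against 3 (p = 0.0357, adjusted p = 0.0714 over the 20), and none passed. Chromosome 15 was among them with a difference of 0.41, but so were chromosomes with far smaller differences, such as chromosome 4 with 0.07, and the test does not single it out. In the Rag2c/c p53-/- lymphomas the genes before the Tra locus lay at -0.15 to 0.59 and those after it at -0.07 to 0.21. Against these lymphomas chromosomes 3, 4, 8, 10, 19 and X passed (exact permutation p = 0.0079, adjusted p = 0.0265 over the 20), at differences of -0.35 to 0.20. For chromosome 15 the Rag2c/c p53-/- lymphomas covered 0.26 to 0.56, and no difference was detectable (exact permutation p = 0.857). The X chromosome lay at -0.31 to -0.12 in the Atm-/- lymphomas. Copy number was not measured in these libraries, and its part in the shifts was not tested.

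**Figure D2:**
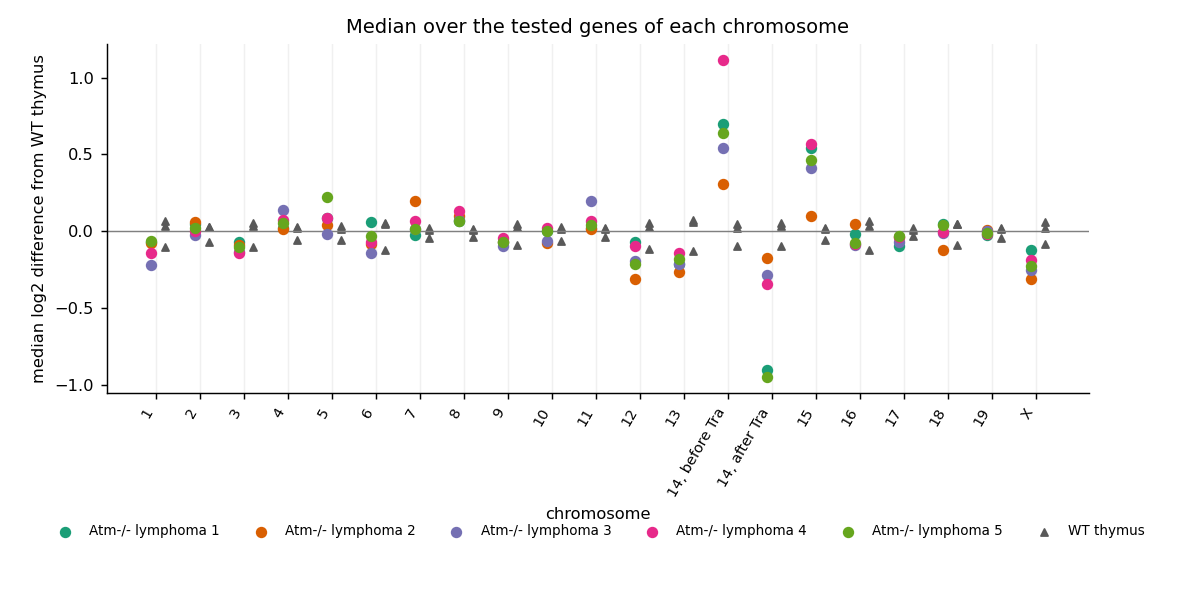
Median log2 difference from WT thymus of the tested genes of each chromosome, with chromosome 14 split at the Tra locus, for each Atm-/- lymphoma and each WT thymus. The 5 lymphomas lie at 0.31 to 1.12 before the Tra locus and at -0.95 to -0.17 after it, and chromosome 15 is raised by 0.10 to 0.57.

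The lymphomas expressed the core genes of the T lineage, and many genes of its later stages were lower. Cd3e, Lck and Thy1, which encode a CD3 chain, the proximal kinase of the receptor and a surface glycoprotein of thymocytes, did not pass the test. The log2 fold change of Cd3e was -0.12 ± 0.31, adjusted p = 0.78, and that of Lck -0.18 ± 0.22, adjusted p = 0.53. Thy1 was at 22156, 36435, 32096, 26785 and 27021 in the lymphomas and 16539, 33210 and 16491 in WT thymus. Of 10 defining thymocyte markers 1 was lower, and the summed level of the list was 142860 to 191749 in the lymphomas and 154754 to 241571 in the thymuses. Of 24 genes of the CD3 complex and receptor signalling 6 were lower and 0 higher. Rasgrp1, a Ras exchange factor downstream of the receptor, had a log2 fold change of -1.97.

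The coreceptors varied between tumors. Cd4 was at 8127, 11240, 17284, 1201 and 15187 in the lymphomas and 19831, 30705 and 20517 in WT thymus, and its log2 fold change of -1.57 ± 0.71, adjusted p = 0.087 did not pass the test. Lymphoma 4 alone was far below the others. Cd8a was at 6145, 20872, 9366, 7257 and 5674 in the lymphomas and 21284, 32183 and 21332 in WT thymus (log2 -1.49 ± 0.35, adjusted p = 0.0037), and lymphoma 2 reached nearly the lowest thymus. Of 15 genes of the DP stage 8 were lower and 0 higher, with a median log2 fold change of -1.48. Plxnd1, a semaphorin receptor of DP cells, had a log2 fold change of -2.76, Slamf1, a receptor of lymphocyte contacts, of -2.26 and Cd8b1, the CD8 β chain, of -1.66.

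Genes of mature SP thymocytes were lower in 12 of 20 cases, with 1 higher and a median of -1.72. Cd40lg, the CD40 ligand of helper T cells, was at 6, 5, 3, 0 and 4 in the lymphomas and 455, 422 and 586 in WT thymus. Foxp3, the regulator of regulatory T cells, was at 14, 9, 2, 0 and 9 in the lymphomas and 236, 240 and 240 in WT thymus. Both were far lower in every lymphoma than in every thymus. Slfn1, a Schlafen gene of quiescent T cells, was at 46, 71, 40, 28 and 26 in the lymphomas and 1282, 1264 and 1301 in WT thymus (log2 -4.99 ± 0.40, adjusted p = 2.1e-06). Gimap3, a GTPase of lymphocyte survival, was at 80, 21, 26, 17 and 13 in the lymphomas and 1048, 978 and 1035 in WT thymus. The member that rose was Ly6c1, a surface antigen of memory T cells with a close paralog, at 6458, 2060, 11364, 226 and 9266 in the lymphomas and 79, 65 and 71 in WT thymus (log2 5.45 ± 1.09, adjusted p = 0.0014), which varied more than any of the preceding genes. S1pr1 and Ccr7, receptors for exit from the thymus and for entry into lymph nodes, were chosen after their values were seen. S1pr1 had a log2 fold change of -4.11 ± 0.62, adjusted p = 0.00021, and Ccr7 of -3.64 ± 0.42, adjusted p = 3e-05. Across 20 homing and migration receptors, 9 were lower and 0 higher, among them Itgae, the αE integrin (log2 -3.31), and Itga4 (log2 -2.37). Another of the 9, Ccr6, reached 10 only in the 3 thymuses and could only come out lower.

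Early progenitor genes gave no rise that passed the test. Ptcra and Il2ra of the DN stage, whose values stand with the Notch targets below, were above every thymus in lymphomas 2 and 4 and under every thymus in lymphomas 3 and 5. Of 14 genes of the progenitor and DN stages 8 were lower and 0 higher, but this count fell to 2 without WT thymus 1 or WT thymus 3 and to 4 without WT thymus 2. Part of that drop is Erg, an ETS factor of stem cells, which reached 10 only in the 3 thymuses, could only come out lower and was not tested without each of them. Mycn, a Myc family gene of progenitors, was listed at 3, 0, 0, 2 and 1 in the lymphomas and 93, 68 and 77 in WT thymus. Erg was at 3, 2, 3, 8 and 0 in the lymphomas and 117, 104 and 123 in WT thymus. Bcl11a, a factor of early progenitors, was lower by 3.08 on the log2 scale (adjusted p = 0.00023).

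Genes that thymocytes switch on within hours of a T cell receptor signal were lower in 13 of 21 cases and higher in 2, with a median log2 fold change of -1.82. Nr4a3, an orphan nuclear receptor of this response, was at 25, 43, 36, 15 and 31 in the lymphomas and 1146, 1345 and 1400 in WT thymus (log2 -5.46 ± 0.75, adjusted p = 0.0001). Cd69, a lectin that holds activated cells in the thymus, was at 60, 144, 26, 207 and 69 in the lymphomas and 1602, 1501 and 1555 in WT thymus (log2 -4.26 ± 0.65, adjusted p = 0.00022). Egr2, a zinc finger factor of positive and negative selection, was at 57, 66, 53, 38 and 32 in the lymphomas and 770, 825 and 965 in WT thymus (log2 -4.13 ± 0.35, adjusted p = 2.7e-06). In each of these, all 5 lymphomas lay far below every thymus. The members that rose were Ier3, an early response gene of NF-κB and stress (log2 1.82 ± 0.42, adjusted p = 0.0034), and Atf3, a stress-induced factor (log2 1.28 ± 0.43, adjusted p = 0.028), named after their values were seen. The call of Atf3 was lost without lymphoma 1 or 4 or any of the WT thymuses (adjusted p of up to 0.11). Both also respond to signals other than the receptor.

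Receptors that modulate the T cell response followed. Of 18 costimulatory and checkpoint receptors 13 were lower and 0 higher, with a median of -2.03. Cd226, an activating receptor, was at 30, 5, 6, 6 and 20 in the lymphomas and 733, 620 and 809 in WT thymus (log2 -5.98 ± 0.75, adjusted p = 5.2e-05). Icos, a CD28 relative, was at 154, 73, 12, 75 and 24 in the lymphomas and 1386, 1316 and 1455 in WT thymus (log2 -4.82 ± 0.74, adjusted p = 0.00024). Of 15 NF-κB pathway genes 7 were lower and 0 higher, with Traf1, an adaptor that NF-κB itself induces, at a log2 fold change of -3.76 and Rel, the c-Rel subunit, at -2.78.

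Among 30 cytokine receptors, JAK and STAT genes, 14 were lower and 1 was higher. Stat4, which transmits the IL-12 signal, was at 34, 21, 16, 8 and 32 in the lymphomas and 631, 448 and 642 in WT thymus (log2 -4.77 ± 0.69, adjusted p = 0.00015). Il2rb, the β chain of the IL-2 and IL-15 receptors, had a log2 fold change of -3.76 and Bcl6, a repressor of helper T cells, of -3.57. The exception was Il9r, the receptor of the T cell growth factor IL-9, with 3377, 1466, 1790, 3243 and 2526 in the lymphomas and 224, 188 and 279 in WT thymus (log2 3.37 ± 0.34, adjusted p = 1.2e-05). Every lymphoma lay above every thymus. Il7r, the IL-7 receptor of early and mature thymocytes, was at 7078, 3387, 2860, 6581 and 5901 in the lymphomas and 2206, 1819 and 2398 in WT thymus. It did not pass the test against WT thymus (log2 1.19 ± 0.65, adjusted p = 0.15), and it was higher than in the Rag2c/c p53-/- lymphomas (log2 2.52, adjusted p = 0.011).

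Interferon-stimulated genes were lower as a group in every lymphoma. Of 32 tested members 24 were lower (75.0%, against 17.0% of all genes) and 0 were higher by limma. The median log2 fold change was -2.15, and the medians of the individual lymphomas were -2.55, -2.31, -1.88, -2.17 and -2.52, so the fall was of like size in each. The members named first act against viral RNA. Oas2 (ENSMUSG00000032690, chromosome 5 from 120730333 to 120749853), a synthetase of 2'-5' oligoadenylates, was at 13, 5, 11, 60 and 37 in the lymphomas and 543, 487 and 569 in WT thymus (log2 -4.83 ± 0.63, adjusted p = 7.4e-05). Ifit1 (ENSMUSG00000034459, chromosome 19 from 34640871 to 34650009), which binds viral RNA, was at 26, 27, 195, 32 and 31 in the lymphomas and 1010, 848 and 937 in WT thymus (log2 -4.42 ± 0.58, adjusted p = 8.1e-05), and lymphoma 3 stood apart from the others. Oasl2, Oas3 and Ifi27l2a had log2 fold changes of -4.56, -4.15 and -4.15. Irf7, the regulator that amplifies type I interferon, was at 127, 151, 172, 254 and 170 in the lymphomas and 1426, 1501 and 1410 in WT thymus (log2 -3.08 ± 0.28, adjusted p = 4.4e-06), and Isg15, a ubiquitin-like modifier, at 82, 190, 158, 115 and 59 in the lymphomas and 541, 581 and 503 in WT thymus (log2 -2.28 ± 0.57, adjusted p = 0.006). Irf7 and Isg15 were chosen after their values were seen.

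The fall was not uniform over the list. Bst2, which tethers budding virus, was at 1519, 2053, 1971, 1918 and 1661 in the lymphomas and 1282, 1705 and 1158 in WT thymus, with lymphomas and thymuses overlapping, and Mx1, Usp18, Ifit2, Ddx58, Xaf1, Gbp3 and Mx2 did not pass either. Against the Rag2c/c p53-/- lymphomas, 4 of the 32 genes were higher and 1 was lower in the Atm-/- lymphomas, where 3.51% and 4.33% of all genes were. Epithelial and dendritic cells are sources of interferon in the thymus. The summed level of 8 dendritic cell markers was 241 to 614 in the lymphomas and 1133 to 1816 in WT thymus. Of the 8, 5 were lower, a count of 2 or 3 without lymphoma 2, 3, 4 or 5 or without WT thymus 1 or 3. The sum of 10 thymic epithelial markers was 1036 to 1463 against 2333 to 2874. The part of these cells in the fall was not tested.

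Promoters of this list are shown because 12 of its 23 members with a promoter in the RefSeq table (52.2%) held a motif of the interferon-stimulated response element type, GAAA and GAAAC with 2 bases of any kind between them, on either strand, against 255 of 27025 genes (0.944%). The window ran from 250 bases before to 50 bases after the start site. Of the 18 changed members with a promoter, 9 held a match. A match is a description of the sequence and no evidence of binding. The sequences are the 200 bases before the RefSeq start site (GRCm38.p6), read 5' to 3' along the strand of the gene, with the matches to this motif or its reverse complement in capitals. The 4 genes were chosen with their values and matches known. The sequences cover chr19:34640689-34640888 (plus strand) for Ifit1, chr19:34583329-34583528 (plus) for Ifit3, chr5:120907526-120907725 (minus) for Oas1a and chr4:156200819-156201018 (minus) for Isg15.
Ifit1: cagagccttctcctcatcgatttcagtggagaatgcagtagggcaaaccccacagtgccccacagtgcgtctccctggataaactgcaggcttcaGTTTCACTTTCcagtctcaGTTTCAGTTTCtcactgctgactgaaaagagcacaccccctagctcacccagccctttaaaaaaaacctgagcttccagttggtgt
Ifit3: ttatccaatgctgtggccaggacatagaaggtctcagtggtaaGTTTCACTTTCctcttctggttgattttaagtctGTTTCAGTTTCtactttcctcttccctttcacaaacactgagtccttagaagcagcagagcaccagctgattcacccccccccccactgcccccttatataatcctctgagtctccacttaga
Oas1a: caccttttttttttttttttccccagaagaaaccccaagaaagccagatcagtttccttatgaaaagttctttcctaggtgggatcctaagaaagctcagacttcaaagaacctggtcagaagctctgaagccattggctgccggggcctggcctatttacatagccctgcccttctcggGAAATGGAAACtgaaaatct
Isg15: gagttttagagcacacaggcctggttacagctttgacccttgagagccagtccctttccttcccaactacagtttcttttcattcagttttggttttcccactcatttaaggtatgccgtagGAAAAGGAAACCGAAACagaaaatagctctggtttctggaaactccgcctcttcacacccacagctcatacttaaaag
Ifit1 and Ifit3 hold 2 separate matches each on the reverse strand, and Oas1a holds 1, which begins 20 bases before the start site. In Isg15 the capitals are 2 overlapping matches. The log2 fold changes were -4.42 for Ifit1, -3.69 for Ifit3, -2.78 for Oas1a and -2.28 for Isg15.

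Genes of antigen presentation by MHC class I were lower in 4 of 14 cases and higher in 0. Nlrc5, the transactivator of class I genes, had a log2 fold change of -3.72 ± 0.44, adjusted p = 3.5e-05. H2-T23 stood at -2.35, H2-K1 at -1.82 and H2-M3 at -1.36 on the same scale. H2 genes have close paralogs and are polymorphic between C57BL/6 and 129S6/SvEv mice, so strain and tumor cannot be told apart for them.

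Notch signalling drives the T cell fate and is often activated in T cell lymphomas. Notch1 (ENSMUSG00000026923, chromosome 2 from 26457903 to 26516663) was at 45260, 62925, 5365, 28906 and 5481 in the lymphomas and 9029, 10454 and 10854 in WT thymus. Lymphomas 1, 2 and 4 exceeded every thymus and lymphomas 3 and 5 lay under every thymus, and the mean difference did not pass the test (log2 0.91 ± 0.70, adjusted p = 0.31). Hes1, a direct Notch target, was at 1221, 5520, 211, 3418 and 248 in the lymphomas and 251, 315 and 247 in WT thymus, and Dtx1, a ubiquitin ligase induced by Notch, at 8025, 16369, 144, 10894 and 664 in the lymphomas and 1451, 1852 and 1634 in WT thymus. Il2ra, the CD25 chain of the IL-2 receptor, was at 4204, 17248, 50, 9640 and 93 in the lymphomas and 3662, 3375 and 3597 in WT thymus. Ptcra, the pre-TCR α chain, was at 1134, 8050, 143, 5456 and 243 in the lymphomas and 1107, 1420 and 1153 in WT thymus. Lymphomas 3 and 5 were the lowest of the 5 for Hes1, Dtx1, Nrarp, Notch3, Ptcra and Il2ra, and none of these genes passed the test against WT thymus. They were named after their values were seen. Notch1, Hes5 and Trib2 of the Notch pathway list also had lymphomas 3 and 5 under the other 3. How many of all genes share this order was not counted, so it is given as a description. Other members had another order. Hey1 was at 6, 9, 9, 9 and 12 against 44, 19 and 27 (log2 -1.58 ± 0.51, adjusted p = 0.023), highest in lymphoma 5. Notch2 was at 1309, 653, 794, 605 and 988 against 1909, 1543 and 2096 (log2 -1.13 ± 0.38, adjusted p = 0.027), lowest in lymphomas 4 and 2. Both were called lower, but both calls were lost without WT thymus 1 or 3 (adjusted p of up to 0.124 and 0.098), and that of Notch2 also without lymphoma 4. Heyl, a hairy-related target, was the member that rose in all, with 1885, 2519, 150, 2070 and 447 in the lymphomas and 37, 16 and 26 in WT thymus (log2 5.15 ± 0.81, adjusted p = 0.00028). Its lowest value too was in lymphoma 3, then in lymphoma 5. Of the 18 Notch pathway genes 1 was higher and 4 were lower, and the lower ones numbered 2 without WT thymus 1 and 1 without WT thymus 3. Maml1, a Notch coactivator, was lower by 1.11 on the log2 scale.

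**Figure D3:**
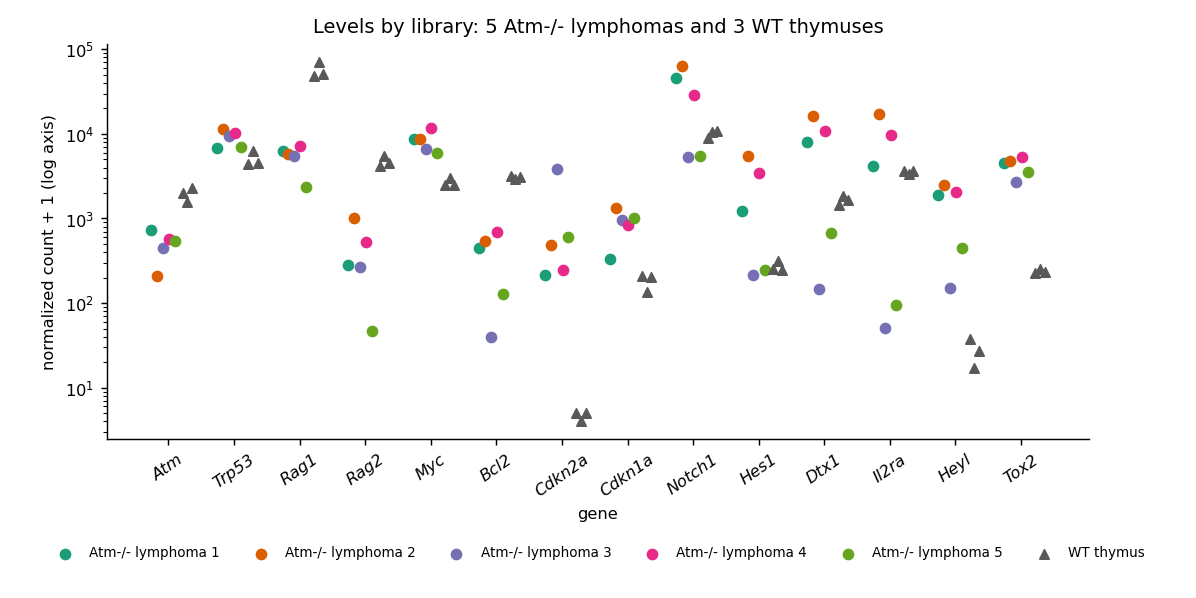
Normalized count + 1, on a log axis, of 14 genes in each of the 5 Atm-/- lymphomas (circles, a color for each) and the 3 WT thymuses (triangles). Rag1 lies at 2383 to 7116 in the Atm-/- lymphomas and at 48182 to 70834 in WT thymus, whereas Notch1, Hes1, Dtx1 and Il2ra spread above and below the WT level.

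Among 18 tested oncogenes and tumor suppressors of T cell leukemia, 1 was higher and 2 were lower. The higher one was Myc (ENSMUSG00000022346, chromosome 15 from 61985341 to 61990374), a driver of growth, at 8632, 8817, 6681, 11860 and 5936 in the lymphomas and 2495, 2985 and 2500 in WT thymus. The mean was 8385 ± 2304 (SD, n = 5) against 2660 ± 281 (SD, n = 3), a log2 fold change of 1.62 ± 0.20, adjusted p = 4.9e-05. Hoxa7, a homeobox gene of progenitors, was near or at 0 with 3, 2, 0, 0 and 0 in the lymphomas and 265, 335 and 326 in WT thymus. Cdkn2a, which encodes p16INK4a and p19ARF and is counted with the regulators of G1, was almost absent from the thymus and present in each lymphoma, with 213, 489, 3808, 243 and 607 in the lymphomas and 4, 3 and 4 in WT thymus (log2 6.94 ± 0.68, adjusted p = 9.6e-06). It was highest in lymphoma 3. With thymus values this low, the size of the fold change depends on the pseudocount of 1. Against the Rag2c/c p53-/- lymphomas, Cdkn2a was lower by 3.06 on the log2 scale (adjusted p = 0.0053).

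Of 20 T lineage transcription factors 1 was higher and 2 were lower (5% and 10%, against 12.6% and 17.0% of all genes). Every lymphoma lay below every thymus for 5 of the 20 and above for 2, where 27.9% and 23.4% of all genes did. Neither count exceeds the share over all genes. Bach2, a repressor that maintains naive T cells, fell from 1805, 1566 and 1958 to 99, 57, 22, 56 and 74 (log2 -4.97 ± 0.46, adjusted p = 6.2e-06). Tox2, an HMG box factor, rose from 228, 250 and 233 to 4482, 4828, 2711, 5293 and 3520 (log2 4.09 ± 0.39, adjusted p = 7e-06), and it was higher than in the Rag2c/c p53-/- lymphomas as well (log2 1.61, adjusted p = 0.0082). Bcl11b, a tumor suppressor that commits cells to the T lineage, was lower by 1.20 on the log2 scale (adjusted p = 0.00011). Gata3, a master factor of T cell development, missed the fold threshold only (log2 0.84 ± 0.27, adjusted p = 0.021).

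Of 20 genes of PI3K, AKT and mTOR signalling 6 were lower and 0 higher. The lower ones included phosphatases that oppose PI3K. Inpp4b, which removes phosphate from PI(3,4)P2, was at 47, 48, 11, 38 and 30 in the lymphomas and 2312, 1644 and 2636 in WT thymus (log2 -6.07 ± 0.71, adjusted p = 3.5e-05). Inpp5d (SHIP1) fell by 1.98 on the log2 scale. Rictor, a subunit of mTORC2, fell by 1.82.

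Of 20 ribosome biogenesis genes 12 were higher and 0 lower, and 8 did not pass. For 19 every lymphoma exceeded every thymus. Bop1, a pre-ribosomal assembly factor, was at 6643, 5175, 6585, 5671 and 6509 in the lymphomas and 2091, 2128 and 2174 in WT thymus (log2 1.51 ± 0.15, adjusted p = 8.9e-06). Gnl3, Nop2, Nle1 and Fbl, which act in ribosomal RNA processing and assembly, rose by 1.44, 1.38, 1.36 and 1.33 on the log2 scale. Srm, which makes spermidine, and Cad, which starts pyrimidine synthesis, are known targets of Myc and rose by 1.67 and 1.32. Mxd1, a Myc antagonist, fell by 1.77. Of 15 genes of the Myc network and polyamine synthesis, 2 were higher and 2 lower (13.3% each, against 12.6% and 17.0% of all genes), with a median of 0.08. Every lymphoma lay above every thymus for 6 of the 15 and below for 5, where 23.4% and 27.9% of all genes did.

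Of 31 genes for DNA replication and nucleotide synthesis 7 were higher and 0 lower, and the higher ones numbered 14 without Atm-/- lymphoma 2. For 24 of the 31, every lymphoma exceeded every thymus, and the median log2 fold change of all 31 was 0.88, short of the fold threshold. Rfc3, a subunit of the clamp loader, rose by 1.61 and Tk1, the thymidine kinase of S phase, by 1.40 on the log2 scale. Gins2, of the replicative helicase, rose by 1.38. Pcna, the sliding clamp, did not pass (log2 0.28 ± 0.16, adjusted p = 0.18). Of 26 genes of mitosis and the spindle 4 were higher (15.4%, near the 12.6% of all genes) and 0 lower. The changed ones numbered 7 without lymphoma 2 and 1 in the 3 lymphomas without Ddx3y. For 15 of the 26 every lymphoma exceeded every thymus, where 23.4% of all genes did, and the median log2 fold change was 0.65. Aurkb and Aurka, kinases of chromosome segregation, rose by 1.16 and 1.13. The motif TTTGGCGC, an E2F-type site, was present in the promoters of 5 of 23 replication genes (21.7%) and of 158 of 27025 genes (0.585%), and in 0 of the 4 changed genes with a promoter.

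Genes of energy metabolism rose in part. Of 22 genes of glycolysis 8 were higher and 3 lower. Slc16a3, a lactate exporter, rose by 3.07 on the log2 scale, Tpi1 by 1.97, Aldoa by 1.37 and Pfkl, the liver phosphofructokinase, by 1.22, while Pfkfb4, a regulator of that step, fell by 1.46. Of 27 genes of oxidative phosphorylation 1 was called higher, Cyc1 of complex III (log2 1.19 ± 0.15, adjusted p = 7.2e-05), and 3 were called without lymphoma 1 or WT thymus 2 and 2 without WT thymus 1. For 20 of the 27, every lymphoma exceeded every thymus. Hmox1, the heme oxygenase of the oxidative stress response, was at 2621, 827, 1416, 1079 and 1285 in the lymphomas and 159, 117 and 154 in WT thymus (log2 3.22 ± 0.29, adjusted p = 4.4e-06).

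**Figure D4:**
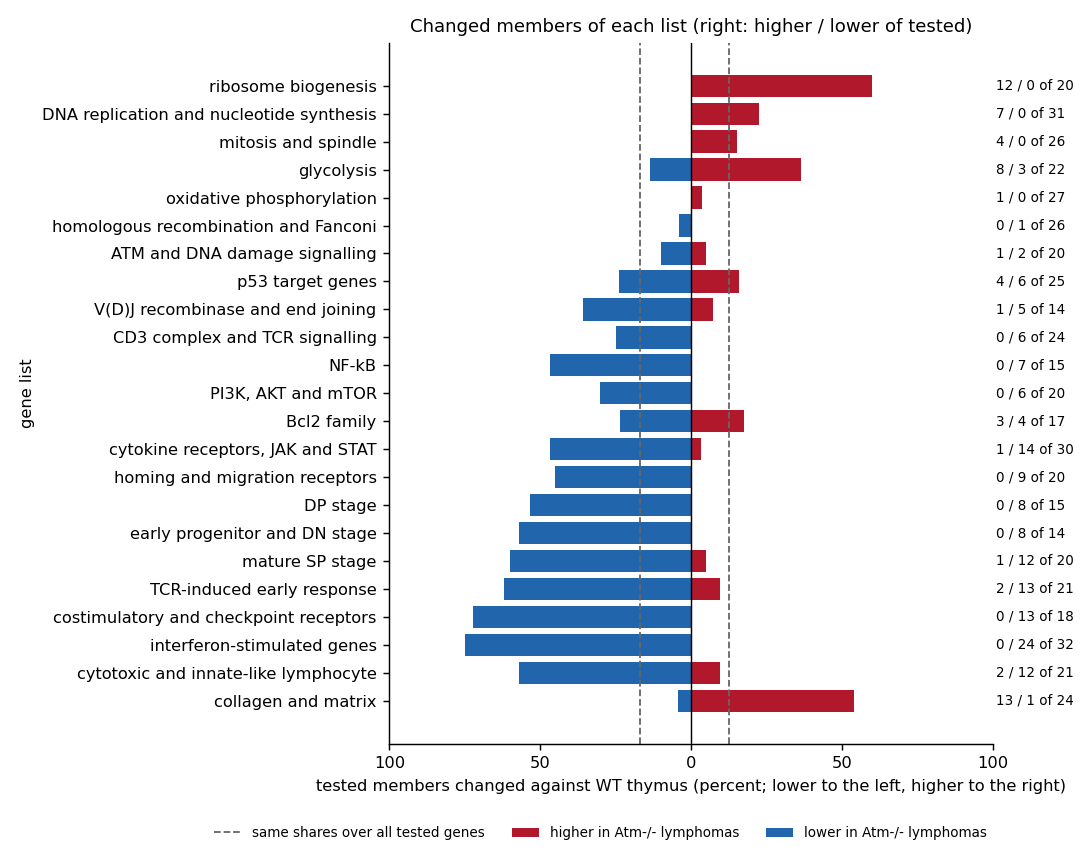
Percent of tested members of each gene list that were changed, higher to the right and lower to the left, in the Atm-/- lymphomas against WT thymus, with the shares over all genes (12.6% higher and 17.0% lower) as reference lines. Ribosome biogenesis genes stand on the higher side with 12 of 20 and interferon-stimulated genes on the lower side with 24 of 32.

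**Figure D5:**
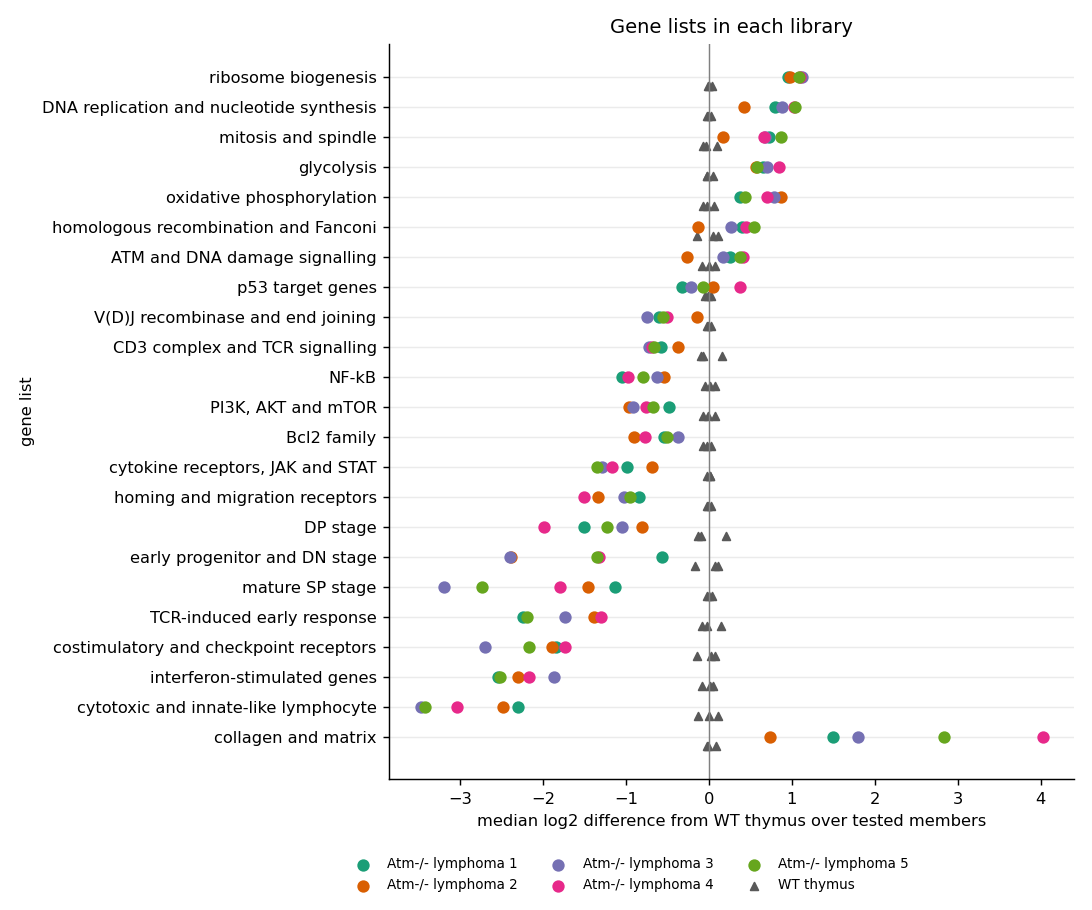
Median log2 difference from the mean of the 3 WT thymuses over the tested members of each gene list, with a point for each library. The interferon-stimulated genes lie between -2.55 and -1.88 in the 5 Atm-/- lymphomas.

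The regulators of G1 were split, with 5 of 23 higher and 5 lower. Cyclin D2 (Ccnd2) was at 1878, 1471, 510, 109 and 1088 in the lymphomas and 6236, 5717 and 6642 in WT thymus (log2 -3.14 ± 0.75, adjusted p = 0.0043), and Cdkn1b, the p27 inhibitor, fell by 1.88. Cdkn1c, the p57 inhibitor and an imprinted gene, rose from 99, 120 and 96 to 823, 425, 2745, 350 and 1116 (log2 2.96 ± 0.61, adjusted p = 0.0017). Of 17 members of the Bcl2 family 3 were higher and 4 lower. Bcl2, the survival factor of mature T cells, was at 443, 546, 39, 690 and 128 in the lymphomas and 3157, 2911 and 3134 in WT thymus (log2 -3.65 ± 0.74, adjusted p = 0.0016), lowest in lymphomas 3 and 5. Bcl2l2 (BCL-W) fell by 3.05 on the log2 scale. Bik and Bid, which promote death, rose by 3.09 and 1.71. Mcl1 and Bcl2l1, the survival factors of DP cells, missed the fold threshold (log2 -0.78 and -0.97). Among 22 genes of Polycomb, Trithorax and DNA methylation 4 were lower (18.2%, near the 17.0% of all genes) and 0 higher. The lower ones include Tet2 (log2 -1.96) and Tet3 (log2 -1.27), which oxidize methylcytosine, and Cbx7 (log2 -1.68), of Polycomb complex 1.

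Transcripts of other cell types differed between lymphoma and thymus in both directions. Collagen and matrix genes were higher in 13 of 24 cases and lower in 1, and the changed ones numbered 9 without WT thymus 1 or without WT thymus 3. Col1a2, a chain of type I collagen, was at 4338, 2099, 4259, 6874 and 4807 in the lymphomas and 37, 23 and 32 in WT thymus (log2 7.07 ± 0.37, adjusted p = 8.2e-08). Col1a1, the other chain, was at 542, 715, 422, 5791 and 2047 in the lymphomas and 36, 52 and 41 in WT thymus (log2 4.72 ± 0.77, adjusted p = 0.00035), and was highest in lymphoma 4. Col1a2 was also higher than in the Rag2c/c p53-/- lymphomas (log2 3.63, adjusted p = 8.3e-06). Spp1, which encodes osteopontin, rose by 5.27 on the log2 scale, Col3a1 by 3.93 and Sparc by 3.73. The summed level of 8 fibroblast markers was 2056 to 10660 in the lymphomas, lymphoma 4 being highest, and 396 to 432 in WT thymus, but 4 of these markers, Col1a1 and Col3a1 included, also stand in the matrix list. The other 4 summed to 3493, 685, 3217, 1741 and 2765 in lymphomas 1 to 5 and to 250 to 290 in WT thymus, and Pdgfrb rose among them. Nearly all of each sum was Pdgfrb alone, at 3470, 665, 3204, 1630 and 2723 in the lymphomas and 236, 244 and 274 in WT thymus. These sums therefore describe 1 gene rather than the 4 markers. Pdgfra was called higher as well, but the call was lost in 7 of 8 fits that left out 1 library (adjusted p of up to 0.136). Adipose and muscle markers summed to 140 to 668 in the lymphomas and to 37 to 77 in WT thymus, with 3 of 5 tested members higher and 0 lower. The changed ones numbered 1 without WT thymus 1. Of their calls, that of Ckm was lost without WT thymus 1, 2 or 3 (adjusted p of up to 0.070). That of Acta1 was lost in 6 of 8 fits that left out 1 library (adjusted p of up to 0.129). The part of these cells in the matrix genes was not tested.

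Myeloid markers were higher in 6 of 13 cases and lower in 2, with sums of 11562 to 20731 against 6846 to 8619. Cd14 rose by 2.82, Cd68 by 1.66 and C1qb, a complement gene of macrophages, by 1.57 on the log2 scale. The members that fell, S100a9 (log2 -5.04 ± 1.15, adjusted p = 0.0035) and S100a8 (log2 -4.67 ± 0.76, adjusted p = 0.00036), are calcium-binding proteins of neutrophils. B cell markers were lower in 6 of 8 cases, with sums of 235 to 998 against 1687 to 2070. Cd79b, of the B cell receptor, fell by 3.65 on the log2 scale. Of 10 markers of thymic epithelium 4 were lower. Of these, Foxn1 and Psmb11 were tested only because they reach 10 in the 3 thymuses, so they could only come out lower. They were not tested when a thymus was left out, where 1 marker was called. Psmb11, the thymoproteasome subunit of cortical epithelium, was listed at 0 in all 5 lymphomas and at 91, 36 and 122 in the thymuses.

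Transcripts of cytotoxic and innate-like lymphocytes were lower in 12 of 21 cases and higher in 2. The changed ones numbered 9 without WT thymus 2. Klrd1, Ncr1, Fasl and Klra1 reached 10 only in the 3 thymuses, could only come out lower and were not tested without each of them. Nkg7, a granule protein, was at 6, 11, 3, 2 and 3 in the lymphomas and 703, 689 and 643 in WT thymus (log2 -7.01 ± 0.48, adjusted p = 4.5e-07). Gzmb, granzyme B, was at 0, 0, 2, 0 and 1 in the lymphomas and 159, 159 and 120 in WT thymus, at or near the limit of detection in every lymphoma.

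The genes with the largest differences were in part genes listed at or near 0 in the thymus. Cym (ENSMUSG00000046213, chromosome 3 from 107211293 to 107221732), which encodes the milk-clotting protease chymosin, was at 4878, 1320, 4110, 1100 and 2459 in the lymphomas and 3, 0 and 3 in WT thymus. Ripk4, a kinase of epithelial differentiation, was at 3573, 1427, 6346, 1596 and 7909 in the lymphomas and 9, 3 and 12 in WT thymus. Cdh22, a cadherin, was at 1076, 2211, 713, 773 and 877 in the lymphomas and 2, 6 and 4 in WT thymus. These were above the thymuses in each of the 5 lymphomas and among the 12 genes with the highest log2 fold change. Of the rest of the 12, Kank4, a cytoskeletal adaptor, was at 3284, 416, 1010, 2 and 3454 in the lymphomas and 0, 0 and 0 in WT thymus, with lymphoma 4 close to the thymuses. Nova1, a splicing factor of neurons, was at 1583, 1167, 206, 389 and 686 in the lymphomas and 2, 0 and 1 in WT thymus. Wisp1, a matricellular protein of the Wnt pathway, was at 2277, 598, 1177, 28 and 1164 in the lymphomas and 2, 0 and 3 in WT thymus. Vgll1, a cofactor of TEAD factors, was at 2623, 272, 236, 56 and 197 in the lymphomas and 0, 0 and 0 in WT thymus, and Ccnb1ip1, a ubiquitin ligase of meiotic crossovers, at 225, 607, 292, 592 and 112 in the lymphomas and 0, 0 and 0 in WT thymus. H2-Bl and Cyp2b23, which also belong to them, have near-identical relatives, and their values are uncertain. Rgma and Trnp1 complete the 12.

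At the other end, Trim12a (ENSMUSG00000066258, chromosome 7 from 104299894 to 104315466), a TRIM family gene with close paralogs, was listed at 0 in all 5 lymphomas and at 3122, 3258 and 3256 in WT thymus. Its neighbour Trim5 was at 1, 2, 2, 6 and 0 in the lymphomas and 573, 526 and 529 in WT thymus, and Trim30a of the same cluster at 752, 779, 521, 825 and 449 in the lymphomas and 2518, 2358 and 2501 in WT thymus. Trim12a ranged from 568 to 1297 in the Rag2c/c p53-/- lymphomas, which are in part C57BL/6. Such family members are uncertain, and strain and tumor cannot be told apart for them. Rab6b, a Rab GTPase, was at 2, 0, 5, 2 and 3 in the lymphomas and 1858, 2001 and 1710 in WT thymus. Eps8l1, a regulator of actin, was at 0, 0, 0, 0 and 1 in the lymphomas and 492, 1637 and 874 in WT thymus. Zcchc12, a zinc finger gene tested only through the thymuses, was listed at 0 in all 5 lymphomas and at 359, 299 and 364 in the thymuses. Slc6a19, an amino acid transporter of epithelia, was at 15, 7, 31, 9 and 12 in the lymphomas and 2993, 2414 and 2750 in WT thymus. Tbata, a thymus and testis gene, Adamts6, Pip5k1b, Tdrp, Pydc4 and the pseudogene Hmgb1-ps8 are the others of the 12 with the lowest log2 fold change.

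Each lymphoma also expressed genes that no other library matched, which are given as a description. In lymphoma 1 these were the olfactory receptor genes Olfr1507 at 333 (highest other library 10) and Olfr1508 at 16 (0 elsewhere), with Erc2 at 1655 (105) and Wnt5a, a Wnt ligand, at 586 (39). All 4 lie on chromosome 14. In lymphoma 5 Bmp4, a growth factor of the TGF-β family, was at 466 (7) and Tpm3-rs7, a tropomyosin-related sequence, at 4344 (159), also on chromosome 14, with Zfp13 at 76 (6) and Lrfn5 at 8 (0). Lymphoma 3 expressed the homeobox genes Lhx1 at 149 (1) and Dlx2 at 364 (15), the neuropeptide gene Gal at 546 (16) and Lhx1os at 16 (0). Lymphoma 2 expressed Il22, a cytokine of innate-like lymphocytes, at 180 (7) and its near-identical copy Iltifb at 767 (32), which cannot be kept apart with certainty, with Mir99ahg at 167 (11) and Rpl39l at 329 (29). In lymphoma 4 these were Ifi202b at 966 (135), Ndufa4l2 at 152 (21), Stk32b at 39 (2) and Cox8b at 11 (0). Ifi202b differs in copy number and level between mouse strains.

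Against the Rag2c/c p53-/- lymphomas, 1244 of the 15872 genes (7.84%) were changed in the Atm-/- lymphomas, 557 higher (3.51%) and 687 lower (4.33%). These lymphomas share the tumor state and differ in Atm, in strain, in p53 and in RAG2. Both comparisons use the Atm-/- libraries, so their calls are not independent. Beside those given above, Cdh22 (log2 3.97, adjusted p = 0.002) and Ccnd2 (log2 2.41, adjusted p = 0.029) were higher in the Atm-/- lymphomas. Traf1 (log2 -2.19, adjusted p = 0.0038), Slc6a19 (log2 -2.50, adjusted p = 0.0055) and Cbx7 (log2 -1.33, adjusted p = 0.026) were lower. Of the 24 genes with the largest differences from WT thymus, 13 were changed against these lymphomas too, 4 of the 12 highest and 9 of the 12 lowest. For Cym, Ripk4, Kank4 and Trnp1 the difference did not pass, and Cym stood at 1091 to 5539 in the Rag2c/c p53-/- lymphomas.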

How the data were processed

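RNA of 13 libraries was sequenced as stranded, paired-end mRNA. The submitters' processing notes name bcl2fastq 1.8.3, STAR 2.4.0g1, Picard and DESeq2 1.6.3 with GRCm38. The study's methods, stated for its own tumors and the WT thymuses, describe duplicate removal and counting of uniquely mapped reads per gene. The deposited values are normalized counts rounded to whole numbers by the authors, treated here as a score because raw reads could not be recovered, so count tests were not run. The fold change, log2 and p-value columns that the authors deposited were not used.

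Of 43629 genes, 26629 had a value above 0 in any library, and 15872 that reached 10 in 3 or more libraries were tested. limma 3.58.1 (R 4.3.3, trend and robust moderation) was fitted to log2(value + 1) of all 13 libraries in 3 groups. A fold change on this scale understates that of low genes. The thresholds are those given above. On simulated data of 15872 genes, 48 of 100 genes with a 2-fold change and 100 of 100 with a 4-fold change were recovered, with 0 false calls. The simulation gave every gene and group the same dispersion and changed far fewer genes than were called in the data. In the data the median SD on the log2 scale was 0.436 in the Atm-/- lymphomas, 0.493 in the Rag2c/c p53-/- lymphomas and 0.162 in WT thymus. The simulated rates therefore check the code and do not give the error rates of the real comparison. Depth was estimated from the steps of low values, which gave the worth of 1 read. Every pair of replicates differed beyond counting noise. Replicates are different mice.

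Genes were named as follows: the genes altered in the mice and the recombinase, the 12 highest and 12 lowest log2 fold changes without overlap and with a mean of at least 100, up to 5 changed members of each list, defining members, and 4 genes for each lymphoma. Receptor segments and genes named by number were left out of the last and of the 12. The genes and lists were chosen with earlier results of these data known. Figures were made with matplotlib 3.10.9. Alternatives covered scaling, filter, pseudocount, fold threshold, groups fitted and leaving out each library. Some items are not reported here.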

Additional observations from a re-analysis of the deposited data

Results flagged for a closer look

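Among 168 named genes tested for a lymphoma that stands apart from the other 4, 12 were flagged, and among 22 chromosome regions 0 were. A gap was flagged when it took more than 0.71 of the range of the 5 lymphomas, which chance reaches in about 1 in 20 groups. Lymphoma 4 held the lowest Slc16a3 at 306, Ms4a1 at 0 and S100a9 at 0, and the highest Xrcc6 at 21818 and Tk1 at 5052. Lymphoma 2 held the highest Cd1d1 at 804 and the lowest Pfkfb4 at 34 and Spp1 at 210. Lymphoma 5 held the lowest Rag1 at 2383 and the highest Prkdc at 719. Lymphoma 3 held the highest Ifit1 at 195, and lymphoma 1 the lowest Bik at 47.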

How the results depend on the processing

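The 4687 changed genes numbered 4603 to 4878 under 3 other scalings, 4611 and 3597 under other filters, 4698 and 4633 with other pseudocounts, 4790 when only lymphomas and thymuses were fitted and 4075 with the 3 lymphomas without Ddx3y. They numbered 7027 without a fold threshold and 2423 with a threshold of 2 on the log2 scale. Leaving out 1 library gave 3401 (without WT thymus 3) to 4666 (without lymphoma 2). Against the Rag2c/c p53-/- lymphomas, the 1244 changed genes numbered 1811 without a fold threshold, 708 with a threshold of 2, 831 with only those groups fitted, and 934 (without Atm-/- lymphoma 1) to 1315 (without Atm-/- lymphoma 3) when 1 library was left out. Of 232 named genes 214 had an adjusted p below 0.05 in the main fit, some of them under the fold threshold. In all, 188 of the 232 kept their direction and side of the threshold under every alternative but the fold thresholds. The log2 fold change turned sign for 4 genes that were not called. Over the fits that left out 1 library it ranged from -0.27 to 0.13 for Cd3e (positive without lymphoma 1 or WT thymus 2), from -0.29 to 0.023 for Lck (positive without WT thymus 2), and, positive without lymphoma 3 or 5, from -0.84 to 0.16 for Notch3 and from -0.84 to 0.61 for Ptcra. Kept receptor segments moved chromosome 14 to -0.69 in lymphoma 1 and -0.65 in lymphoma 5, an alternative chosen after seeing the data. The cause of these changes was not tested. No paired analysis was possible because the replicate numbers were given in accession order only. Strain, library set and tumor state cannot be told apart, and 3 reads are worth 2.55 to 6.87 in the lymphoma libraries. In the WT thymus libraries they are worth 1.5 to 9.72.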
